A study of Homo sapiens with 12 samples.

Results

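Glutamine and glutamate carry nitrogen and carbon between the cytosol, the mitochondrion and the medium, and 6 enzymes of this exchange were followed here: GLS2, GLUL, GLUD1, GOT1, GOT2 and GPT2. They were matched by symbol to the Ensembl identifiers of the expression values, and all 6 were found among 62703 identifiers. Of these 6, 5 passed the filter on low values, a TPM (a share of all transcripts that allows for transcript length) of at least 1 in at least 3 libraries, as did 14639 genes in all. GLS2 did not pass it.

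The samples were 12 RNA-seq libraries of HK2, an immortalised line of human proximal tubule epithelial cells, in 4 groups of 3 libraries. NG cells received a control vector and were kept at 5.5 mM glucose, and si-FGF9 cells received a small interfering RNA against the growth factor gene FGF9 at the same 5.5 mM glucose. HG cells were kept at 50 mM glucose, and HG+OE-FGF9 cells received a viral vector for FGF9 overexpression at 50 mM glucose, a lentivirus in the labels and the methods and an adenovirus elsewhere in the study's text. Neither a control siRNA for si-FGF9 nor a control vector for HG is named in the sources used here, and the study also describes the NG medium as containing mannitol, so effects of delivery or of osmolarity cannot be told apart from those of FGF9 or glucose. How long the cells stayed in each medium is not given there. Whether the replicates came from separate cultures is not given either, so p-values measure only the spread between these libraries. In bulk RNA, fewer cells making a transcript and less transcript per cell cannot be told apart.

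GLS2, the liver-type glutaminase, releases ammonia from glutamine and leaves glutamate. GLUL, glutamine synthetase, runs the other way in the cytosol, and GLUD1, the mitochondrial glutamate dehydrogenase, releases a further ammonia and leaves 2-oxoglutarate. The aminotransferases GOT1 (cytosol), GOT2 (mitochondrion) and GPT2 (mitochondrion) pass the amino group of glutamate to oxaloacetate or pyruvate, which gives aspartate or alanine. Proximal tubule cells are known for making ammonia from glutamine, and GOT1 and GOT2 are also the aminotransferases of the malate-aspartate shuttle.

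In GENCODE release 29 on the GRCh38 build, GLS2 lay on the minus strand at chr12:56470944-56488414, GLUL on the minus strand at chr1:182381704-182392206 and GLUD1 on the minus strand at chr10:87050486-87094866. GOT1 lay on the minus strand at chr10:99396870-99431569, GOT2 on the minus strand at chr16:58707131-58734357 and GPT2 on the plus strand at chr16:46884378-46931297. A gene on the opposite strand overlapped GLS2, GLUD1, GOT1 and GOT2, and with no statement of stranded counting the reads of such partners cannot be told apart. Among 16 annotated pseudogenes of the members, 12 were listed at 0 in all libraries, and the highest value of any was 1.85 TPM, for a GLUD1P2 entry. The close relatives GLUD2 and GPT stayed at or below 0.28 and 0.37 TPM.

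The promoters of both aspartate aminotransferases are shown because GOT1 passed the adjusted threshold between HG+OE-FGF9 and HG while GOT2 did not, and that of asparagine synthetase (ASNS) because it rose in the same comparison. Each line gives 250 bases immediately before a RefSeq transcription start on GRCh38.p14, 5′ to 3′ on the strand of the gene, at chr10:99430625-99430874 (minus) for GOT1, chr16:58734317-58734566 (minus) for GOT2 and chr7:97872409-97872658 (minus) for ASNS. Capitals mark matches to the C/EBP-ATF element, searched as TGATGNAA on both strands; the E-box CACGTG, searched as well, shares no overlap with it and has no match in these 3 stretches.
GOT1: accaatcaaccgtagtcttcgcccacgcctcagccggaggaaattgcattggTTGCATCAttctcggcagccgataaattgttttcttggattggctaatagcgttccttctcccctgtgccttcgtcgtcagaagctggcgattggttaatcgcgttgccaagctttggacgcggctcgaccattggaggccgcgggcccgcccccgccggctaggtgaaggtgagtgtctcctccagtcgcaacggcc
GOT2: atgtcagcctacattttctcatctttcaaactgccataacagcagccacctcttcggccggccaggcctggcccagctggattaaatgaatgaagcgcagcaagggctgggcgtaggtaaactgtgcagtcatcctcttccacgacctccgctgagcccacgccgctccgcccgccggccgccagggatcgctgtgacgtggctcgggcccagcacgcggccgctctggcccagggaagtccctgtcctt
ASNS: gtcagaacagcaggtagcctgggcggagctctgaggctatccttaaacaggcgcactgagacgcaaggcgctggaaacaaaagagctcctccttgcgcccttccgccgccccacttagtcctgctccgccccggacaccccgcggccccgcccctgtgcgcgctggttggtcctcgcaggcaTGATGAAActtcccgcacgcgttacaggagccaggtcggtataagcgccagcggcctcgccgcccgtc

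The match in GOT1, TTGCATCA, reads the element on the opposite strand and begins 198 bases before the start, and that in ASNS, TGATGAAA, begins 68 bases before it. The RefSeq table held windows for 5 of the 6 members, and the windows reach a little past the start. Of the 6 windows of these 5 genes (GLUL has a pair of starts), 1 held the element, that of GOT1. Over all 35116 windows of the table the share was 3.62%, and over the 80 windows of the other pathway genes described further on it was 8.75%. The E-box was in none of the members' windows, in 7.26% of all windows and in 13.8% of those of the pathway. The element had no match in the 250 bases before the other RefSeq start of ASNS. Nor had it any before the starts of SLC3A2 and SLC7A5, also called higher in HG+OE-FGF9 versus HG, though a window of SLC3A2 held it past the start. It had a match before a start of BCAT1, SLC1A3, SLC1A5 and SLC25A11, which were not called in that comparison. A match describes these letters and is not evidence of a bound site.

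FGF9 itself was listed at 0 TPM in all NG, HG and si-FGF9 libraries, and at 3.34, 4.03 and 3.82 TPM in HG+OE-FGF9. The overexpression label was thus borne out by the values, while the siRNA label could not be checked from them, as the control was also at 0. By RT-qPCR the study itself reports FGF9 in NG, at lower means in HG and si-FGF9 and at a far higher mean in HG+OE-FGF9. Of 11 proximal tubule markers, GGT1 (71.7 to 195 TPM) and PAX8 (19.7 to 79.1 TPM) were present in all libraries, and the defining transporters and receptors LRP2, CUBN, SLC34A1, SLC22A6 and SLC22A8 were at 0.15 TPM or lower. SLC5A2 (0.16 to 3.01 TPM) and AQP1 (0.47 to 2.34 TPM) were low, and SLC5A1 and ANPEP were at 0.26 TPM or lower. Of 5 epithelial markers, the keratins KRT8, KRT18 and KRT19 ran from 211 to 678 TPM and EPCAM from 3.95 to 31.3 TPM, while the epithelial cadherin CDH1 was at 0.28 TPM or lower. The leukocyte markers PTPRC and CD3E and the 4 endothelial markers were at 0.10 TPM or lower. LYZ, also listed as a leukocyte marker, reached 2.43 TPM and had a mean of at least 1 TPM only in HG+OE-FGF9. The 5 fibroblast markers summed to 5.14 to 12.4 TPM in NG and to 2.25 to 3.55 TPM in the other groups, mostly from COL1A1 and DCN, with COL1A2 and COL3A1 at 0.22 TPM or lower; their part in the differences from NG was not tested. CD68, a lysosomal protein listed as a leukocyte marker, stood at 108 to 159 TPM.

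Several libraries stood apart. HG replicate 3 correlated more closely with NG (r = 0.942 to 0.956 on log2 values) than did HG replicates 1 and 2 (0.853 to 0.927). HG+OE-FGF9 replicates 1 and 2 differed unusually little, with a robust SD of the log2 difference of 0.0554 over 1938 abundant genes against 0.0776 to 0.731 for the other pairs within groups; as TPM keep no depth, they could not be tested for being a single library. The libraries also differed in how their values followed GC content: Spearman's rho across genes between GC content and the deviation from the mean over libraries ran from -0.652 to -0.552 in NG, from 0.229 to 0.551 in si-FGF9 and from 0.269 to 0.442 in HG+OE-FGF9, and was 0.122, 0.574 and -0.416 in HG replicates 1, 2 and 3. The median tested gene had a log2 fold change of -0.39 in high against normal glucose, of -0.79 with the siRNA and of -0.13 with FGF9 overexpression. GLUL (44.3%) and GLUD1 (46.4%) have a lower GC content than GOT1, GOT2 and GPT2 (52.8%, 50.4% and 55.3%). Values of the members are therefore given as deposited and, beside them, after a correction for GC content or a rescaling by the median of ratios, which put the median of all genes between -0.07 and 0.00.

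**Figure D1:**
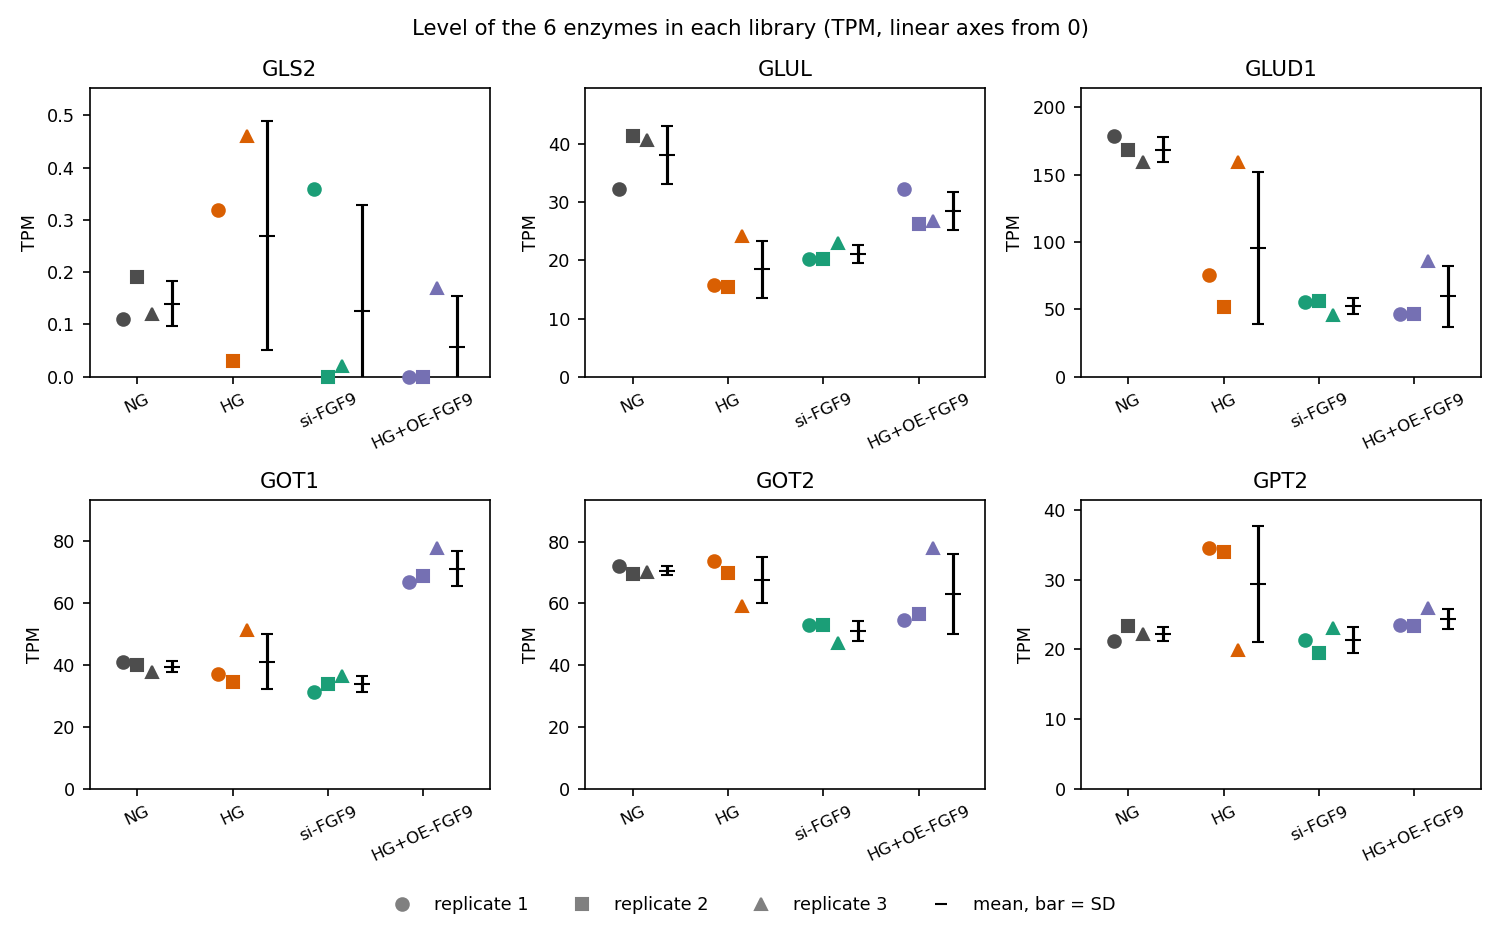
TPM (linear axes from 0, a separate axis for each gene) of the 6 enzymes in the 12 libraries; symbols are replicates and black bars the mean with SD of 3 libraries, cut off at 0. GLUL and GLUD1 stood highest in NG, GOT1 stood at 67.0 to 77.7 TPM in HG+OE-FGF9 against 31.2 to 51.2 TPM elsewhere, and HG replicate 3 lay apart from the other 2 HG libraries for GLUD1 and GPT2.

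GLS2 was near the bottom of the scale in every library. It stood at 0.11, 0.19 and 0.12 TPM in NG, at 0.32, 0.03 and 0.46 TPM in HG, at 0.36, 0 and 0.02 TPM in si-FGF9 and at 0, 0 and 0.17 TPM in HG+OE-FGF9. All 4 groups overlapped, and the gene was not tested.

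GLUL, which makes glutamine from glutamate and ammonia, was on the deposited values lower in HG than in NG and at an intermediate level in HG+OE-FGF9. Its TPM were 32.3, 41.3 and 40.6 in NG, 20.2, 20.3 and 23.0 in si-FGF9, 15.8, 15.5 and 24.1 in HG and 32.2, 26.2 and 26.8 in HG+OE-FGF9. Every NG library was above every other library, and every HG+OE-FGF9 library was above every HG and si-FGF9 library. Of all tested genes, 57.2% had no overlap between HG and NG, 76.4% between si-FGF9 and NG and 22.1% between HG+OE-FGF9 and HG. The share separated from all other groups at once was not counted. HG+OE-FGF9 differed from si-FGF9 by 0.41 on the log2 scale (limma adjusted p = 0.13), by 0.13 after GC correction and by 0.04 after median of ratios. From a mean of 38.1 ± 5.00 TPM in NG (SD, n = 3) to 18.5 ± 4.90 TPM in HG (SD, n = 3) the log2 fold change was -1.03 (SE 0.186, limma adjusted p = 0.00159), which passed the study's criteria of a log2 fold change of at least 1 and p under 0.01. The value depended on the scaling: it was -0.53 after median of ratios and -0.34 after GC correction (adjusted p = 0.196), and neither passed. It also lay so near the fold limit that leaving out NG replicate 2 (-0.97), NG replicate 3 (-0.98), HG replicate 1 (-0.93) or HG replicate 2 (-0.92) took it below 1.

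The si-FGF9 group stood at 21.1 ± 1.58 TPM of GLUL (SD, n = 3). The log2 difference from NG was -0.81 (SE 0.186, limma adjusted p = 0.00185), short of the fold limit, and it turned to 0.18 after median of ratios and to 0.30 after GC correction, so that no direction can be given for it. In HG+OE-FGF9, GLUL averaged 28.4 ± 3.28 TPM (SD, n = 3), 1.54 times the HG mean. The log2 difference of 0.62 (SE 0.186) had an adjusted p of 0.0568 in the limma fit as deposited and of 0.0218 after GC correction, with a difference of 0.77. It was positive under every scaling and with each library left out, from 0.51 to 0.82, and never reached 1. Against NG, GLUL in HG+OE-FGF9 differed by -0.41 as deposited (limma adjusted p = 0.0713). This turned to 0.42 after GC correction (adjusted p = 0.082) and to 0.23 after median of ratios, so its place relative to NG depended on the scaling.

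GLUD1, which opens glutamate to 2-oxoglutarate in the mitochondrion, was the most abundant member in NG. The TPM were 178, 168 and 159 in NG, 55.7, 56.4 and 45.7 in si-FGF9, 75.5, 51.7 and 160 in HG and 46.5, 46.7 and 85.7 in HG+OE-FGF9. The si-FGF9 and HG+OE-FGF9 libraries were all below all NG libraries, whereas HG replicate 3, at 160 TPM, fell inside the NG range. Of all tested genes, 76.4% did not overlap between si-FGF9 and NG, and that share was not counted for HG+OE-FGF9 and NG. Its share of the summed TPM of the 6 members was 48.3% to 51.7% in NG, 26.1% to 30.8% in si-FGF9 and 20.8% to 29.1% in HG+OE-FGF9; in HG replicates 1, 2 and 3 it was 31.9%, 25.1% and 50.8%.

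Between NG, at 169 ± 9.57 TPM, and si-FGF9, at 52.6 ± 5.98 TPM (both SD, n = 3), the log2 fold change of GLUD1 was -1.67 (SE 0.342, limma adjusted p = 0.000895). This passed the study's criteria as deposited and with any library left out, but not after GC correction (-0.78, adjusted p = 0.0299) or median of ratios (-0.64). Quantile normalization gave -1.35, which passed. HG averaged 95.6 ± 56.7 TPM (SD, n = 3), a log2 difference of -0.97 from NG (SE 0.342, limma adjusted p = 0.0338); without HG replicate 3 it was -1.42 and passed, and without HG replicate 2 it was -0.61. It was -0.82 after quantile normalization and -0.46 after both median of ratios and GC correction (adjusted p = 0.221 for the latter). Against HG, the HG+OE-FGF9 level of 59.6 ± 22.6 TPM (SD, n = 3) gave -0.57 (adjusted p = 0.286). The groups overlapped, and the size rested on single libraries: it was -0.13 without HG replicate 3, -0.93 when HG replicate 2 was left out and -0.86 when replicate 3 of HG+OE-FGF9 was, none of which passed the criteria.

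GOT1, the cytosolic aspartate aminotransferase, had the largest difference of the 5 tested members between HG+OE-FGF9 and HG as deposited, after median of ratios and after quantile normalization, whereas after GC correction that of GLUL was larger (0.77 against 0.74). Its TPM were 41.0, 39.9 and 37.7 in NG, 31.2, 33.8 and 36.4 in si-FGF9, 37.3, 34.7 and 51.2 in HG and 67.0, 68.8 and 77.7 in HG+OE-FGF9. All HG+OE-FGF9 libraries lay above the 9 others. The share of all genes separated in this way was not counted, and 22.1% did not overlap between HG+OE-FGF9 and HG alone. The mean was 71.2 ± 5.73 TPM there and 41.1 ± 8.87 TPM in HG (both SD, n = 3), a ratio of 1.73. The log2 difference of 0.80 (SE 0.156, limma adjusted p = 0.00952) passed the adjusted threshold of 0.05 and not the fold limit of 1. It was 0.74 after GC correction (adjusted p = 0.0068) and 0.93 after median of ratios, and between 0.69 and 0.96 with a library left out. With HG+OE-FGF9 replicates 1 and 2 averaged into a single sample it was 0.83.

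HG differed from NG in GOT1 by 0.03 on the log2 scale as deposited (SE 0.156, limma adjusted p = 0.879). The difference was 0.53 after median of ratios and 0.43 after quantile normalization, both past the p limit of the study's criteria and short of the fold limit, and 0.22 after GC correction (adjusted p = 0.246). In si-FGF9 GOT1 averaged 33.8 ± 2.60 TPM (SD, n = 3), -0.22 from NG (adjusted p = 0.226), which turned to 0.79 after median of ratios, 0.45 after quantile normalization and 0.27 after GC correction. HG+OE-FGF9 was 1.05 above si-FGF9 (adjusted p = 0.000969 in the same limma fit), which passed the study's criteria, although after GC correction the difference was 0.69.

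GOT2, the mitochondrial form of the same enzyme, varied less. It stood at 72.2, 69.4 and 70.3 TPM in NG, 53.1, 52.9 and 47.2 TPM in si-FGF9, 73.7, 69.9 and 59.2 TPM in HG and 54.7, 56.6 and 77.8 TPM in HG+OE-FGF9. The si-FGF9 libraries lay below all others, and the other 3 groups overlapped. Between si-FGF9 and NG alone, 76.4% of all tested genes did not overlap. The si-FGF9 mean of 51.1 ± 3.35 TPM against 70.6 ± 1.41 TPM in NG (both SD, n = 3) was a log2 difference of -0.46 (SE 0.153, limma adjusted p = 0.0173), smaller in size than the shift of the median gene. It turned to 0.56 after median of ratios, 0.04 after quantile normalization and 0.17 after GC correction. HG differed from NG by -0.07 (adjusted p = 0.742) and HG+OE-FGF9 from HG by -0.11 (adjusted p = 0.653).

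A ratio of GOT2 to GOT1 within a library does not depend on any factor applied to that whole library. A dependence on GC content, 50.4% for GOT2 and 52.8% for GOT1, need not cancel, and the ratio was not corrected for it. After GC correction GOT1 and GOT2 differed from NG by 0.27 and 0.17 in si-FGF9, and from HG by 0.74 and -0.14 in HG+OE-FGF9. The ratio was 1.76, 1.74 and 1.87 in NG, 1.70, 1.57 and 1.30 in si-FGF9, 1.98, 2.01 and 1.16 in HG and 0.817, 0.822 and 1.00 in HG+OE-FGF9. GOT2 thus exceeded GOT1 in all 9 libraries of the other groups and was level with it or below it in HG+OE-FGF9. On the log2 scale the HG+OE-FGF9 mean of -0.19 ± 0.167 was 0.92 lower than the HG mean of 0.73 ± 0.455 (both SD, n = 3), with no overlap. The two-sided exact permutation test gave p = 0.1, the smallest that 3 against 3 libraries allow (0.15 after adjustment over 3 comparisons). For si-FGF9 versus NG the difference was -0.24, again without overlap (exact permutation p = 0.1, adjusted 0.15), and for HG versus NG it was -0.10 (exact permutation p = 1), turning to 0.16 without HG replicate 3.

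**Figure D2:**
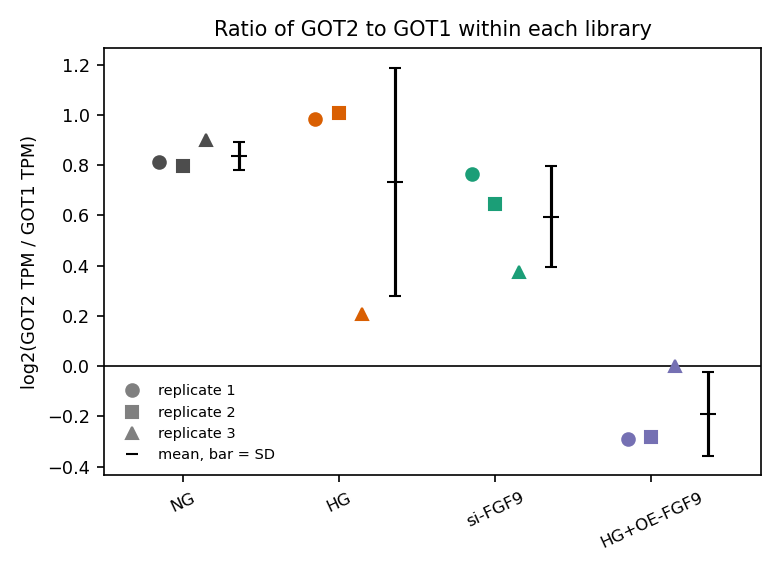
The log2 ratio of GOT2 to GOT1 TPM in each library; symbols are replicates, black bars the mean with SD of 3 libraries, and the line at 0 marks equal levels. The HG+OE-FGF9 libraries lie at or below 0 (-0.29, -0.28 and 0.00), and every other library lies above 0, HG replicate 3 being the lowest of them at 0.21.

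GPT2, which makes alanine from pyruvate in the mitochondrion, had similar deposited levels in the groups other than HG. The TPM were 21.2, 23.3 and 22.2 in NG, 21.4, 19.5 and 23.1 in si-FGF9, 34.5, 34.0 and 19.8 in HG and 23.5, 23.4 and 26.0 in HG+OE-FGF9. HG replicates 1 and 2 were the highest of the 12 libraries and HG replicate 3 was among the lowest. The log2 difference of HG from NG was 0.35 (SE 0.194, limma adjusted p = 0.156), and 0.60 without HG replicate 3. It was 0.84 after median of ratios and 0.82 after quantile normalization, both past the p limit and short of the fold limit, and 0.42 after GC correction (adjusted p = 0.0559). That of si-FGF9 from NG was -0.06, and it turned to 0.93 after median of ratios, 0.74 after quantile normalization and 0.28 after GC correction. HG+OE-FGF9 was -0.23 from HG (adjusted p = 0.457), with overlapping groups.

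**Figure D3:**
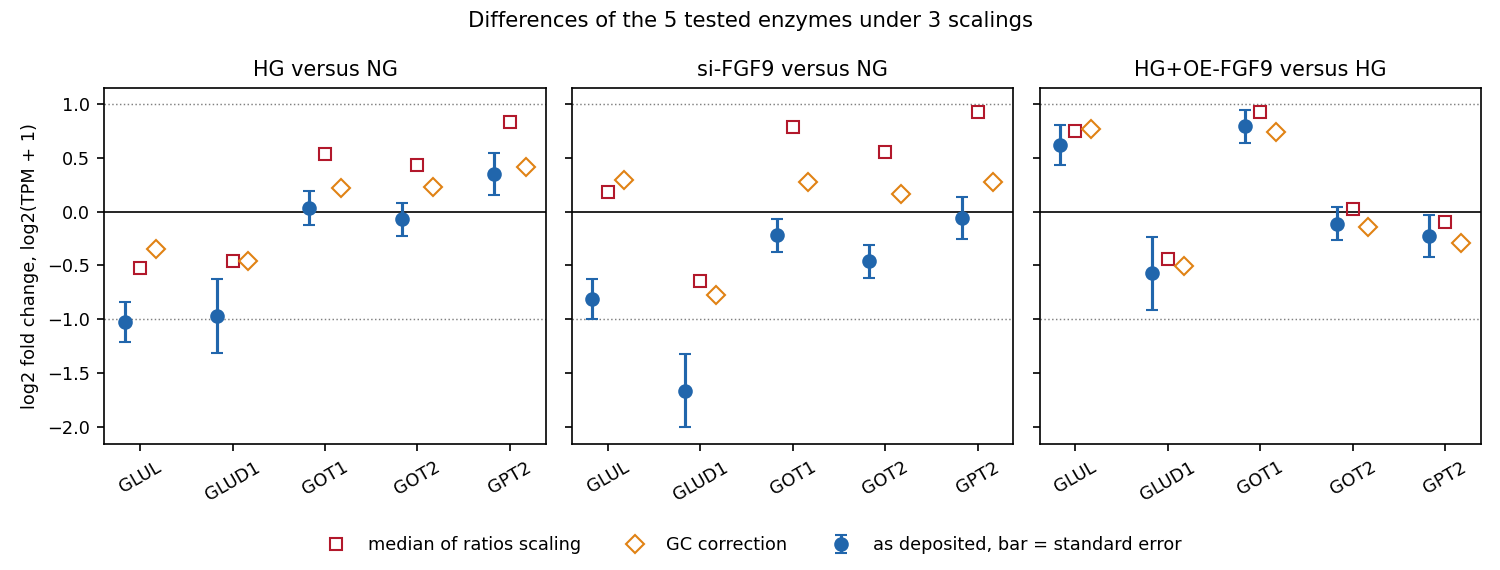
Log2 fold changes of the 5 tested enzymes on the log2(TPM + 1) scale in 3 comparisons; filled circles are the deposited values with their standard error, open squares the values after median of ratios scaling and open diamonds those after GC correction, with dotted lines at the fold limit of 1. In the left and middle panels the open symbols lie above the circles, while in HG+OE-FGF9 versus HG the scalings of GOT1 lie between 0.74 and 0.93.

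Counted together, 1 of the 5 tested members passed the study's criteria in HG versus NG (GLUL, lower), where 24.4% of all tested genes passed in either direction, and 1 of 5 in si-FGF9 versus NG (GLUD1, lower), where 47.6% did. None of the 5 passed in HG+OE-FGF9 versus HG in the limma fit, where 5.61% of all genes did, although 2 of them, GLUL and GOT1, fell under an unadjusted threshold of 0.05, as did 28.2% of all genes. By adjusted p under 0.05 alone the counts were 2 of 5 (GLUL and GLUD1) against 49.0% of all genes, 3 of 5 (GLUL, GLUD1 and GOT2) against 69.3%, and 1 of 5 (GOT1) against 9.53%. The libraries of the groups compared did not overlap for 1 of 5 members in HG versus NG (57.2% of all genes), for 4 of 5 in si-FGF9 versus NG (76.4%) and for 2 of 5, GLUL and GOT1, in HG+OE-FGF9 versus HG (22.1%). The members' median log2 fold change was -0.07, -0.46 and -0.11 in the 3 comparisons, each closer to 0 than the median of all genes. With 5 genes these shares describe the members and are not a result about them. The first 2 comparisons share the NG libraries, and the first and last share the HG libraries.

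Across all 6 pairs of groups, 4 of 30 contrasts of the tested members passed the study's criteria. The additional ones were GLUD1 in HG+OE-FGF9 versus NG (-1.54, limma adjusted p = 0.00185), where 39.7% of all genes passed, and GOT1 in HG+OE-FGF9 versus si-FGF9, where 9.00% did. In si-FGF9 versus HG none of the members passed and 11.1% of all genes did; GOT2 alone fell under an unadjusted threshold of 0.05 in the limma fit there, as did 46.2% of all genes. In order of mean TPM, GLUL ran NG, HG+OE-FGF9, si-FGF9, HG; GLUD1 ran NG, HG, HG+OE-FGF9, si-FGF9; and GOT1 ran HG+OE-FGF9, HG, NG, si-FGF9. Of the neighbours in these orders, on the deposited values, GOT1 in HG+OE-FGF9 and HG and GLUD1 in NG and HG differed at an adjusted p under 0.05, while GLUL in si-FGF9 and HG (adjusted p = 0.383), GLUD1 in HG+OE-FGF9 and si-FGF9 (0.83) and GOT1 in HG and NG (0.879) did not differ beyond their spread in the limma fit. For GOT2 and GPT2 no neighbours in the order differed on the deposited values (adjusted p = 0.199 to 0.804). None of the 30 passed both criteria after GC correction. Of all genes 6.84% did in HG versus NG, 24.3% in si-FGF9 versus NG, 5.21% in HG+OE-FGF9 versus HG, 23.1% in HG+OE-FGF9 versus NG, 5.86% in si-FGF9 versus HG and 7.17% in HG+OE-FGF9 versus si-FGF9. Under that correction GOT1 in HG+OE-FGF9 against each other group, GLUL in HG+OE-FGF9 and in si-FGF9 against HG, and GLUD1 in HG+OE-FGF9 and in si-FGF9 against NG had an adjusted p under 0.05 in limma. The share of all genes under that threshold was 16.8% for HG+OE-FGF9 versus HG, 56.6% for HG+OE-FGF9 versus NG, 27.1% for HG+OE-FGF9 versus si-FGF9, 26.3% for si-FGF9 versus HG, 57.7% for si-FGF9 versus NG and, with no member under it, 31.0% for HG versus NG.

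Members also differed from each other in their pattern over the 12 libraries. Pearson's r between pairs of members on log2 values, libraries of one group not being independent of each other, ran from -0.51 (GLUL and GPT2) to 0.58 (GLUD1 and GOT2), and was 0.14 for GOT1 and GOT2. The genes whose values ran closest to GOT1 were SLC7A5 (r = 0.963), the light chain of a transporter for large neutral amino acids, YARS1 (0.956), the cytosolic tyrosyl-tRNA synthetase, and PFDN6 (0.942), a prefoldin subunit. For GLUL they were ABL2 (0.957), MEF2D (0.952) and MAP3K9 (0.947), and for GLUD1 LIMA1 (0.993), MMD (0.993) and SNHG14 (0.992). For GOT2 they were CHD1-DT (0.959), TYMS (0.953) and CARMIL1 (0.947), and for GPT2 SLC35C1 (0.969), DNAJB12 (0.968) and BCKDK (0.967). These are the top 3 for each member among those of the 14639 tested genes that have a symbol, and are given as a description.

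The other genes of the pathway were taken from a list of 61, in 7 role groups, of which 48 passed the filter. In HG versus NG 13 of the 48 were called lower and 0 higher, where 22.7% and 1.65% of all genes were, with a median log2 fold change of -0.43 against -0.39 over all genes. In si-FGF9 versus NG 21 were called lower and 1 higher, where 42.2% and 5.36% of all genes were, with a median of -0.91 against -0.79. In HG+OE-FGF9 versus HG 2 were called lower and 4 higher, where 2.67% and 2.94% of all genes were, with a median of -0.10 against -0.13. After GC correction the first comparison gave 1 lower and 0 higher calls, the second 7 lower and 3 higher and the third again 2 lower and 4 higher, where 6.84%, 24.3% and 5.21% of all genes passed in either direction. Leaving out HG replicate 2 took the 13 to 7.

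**Figure D4:**
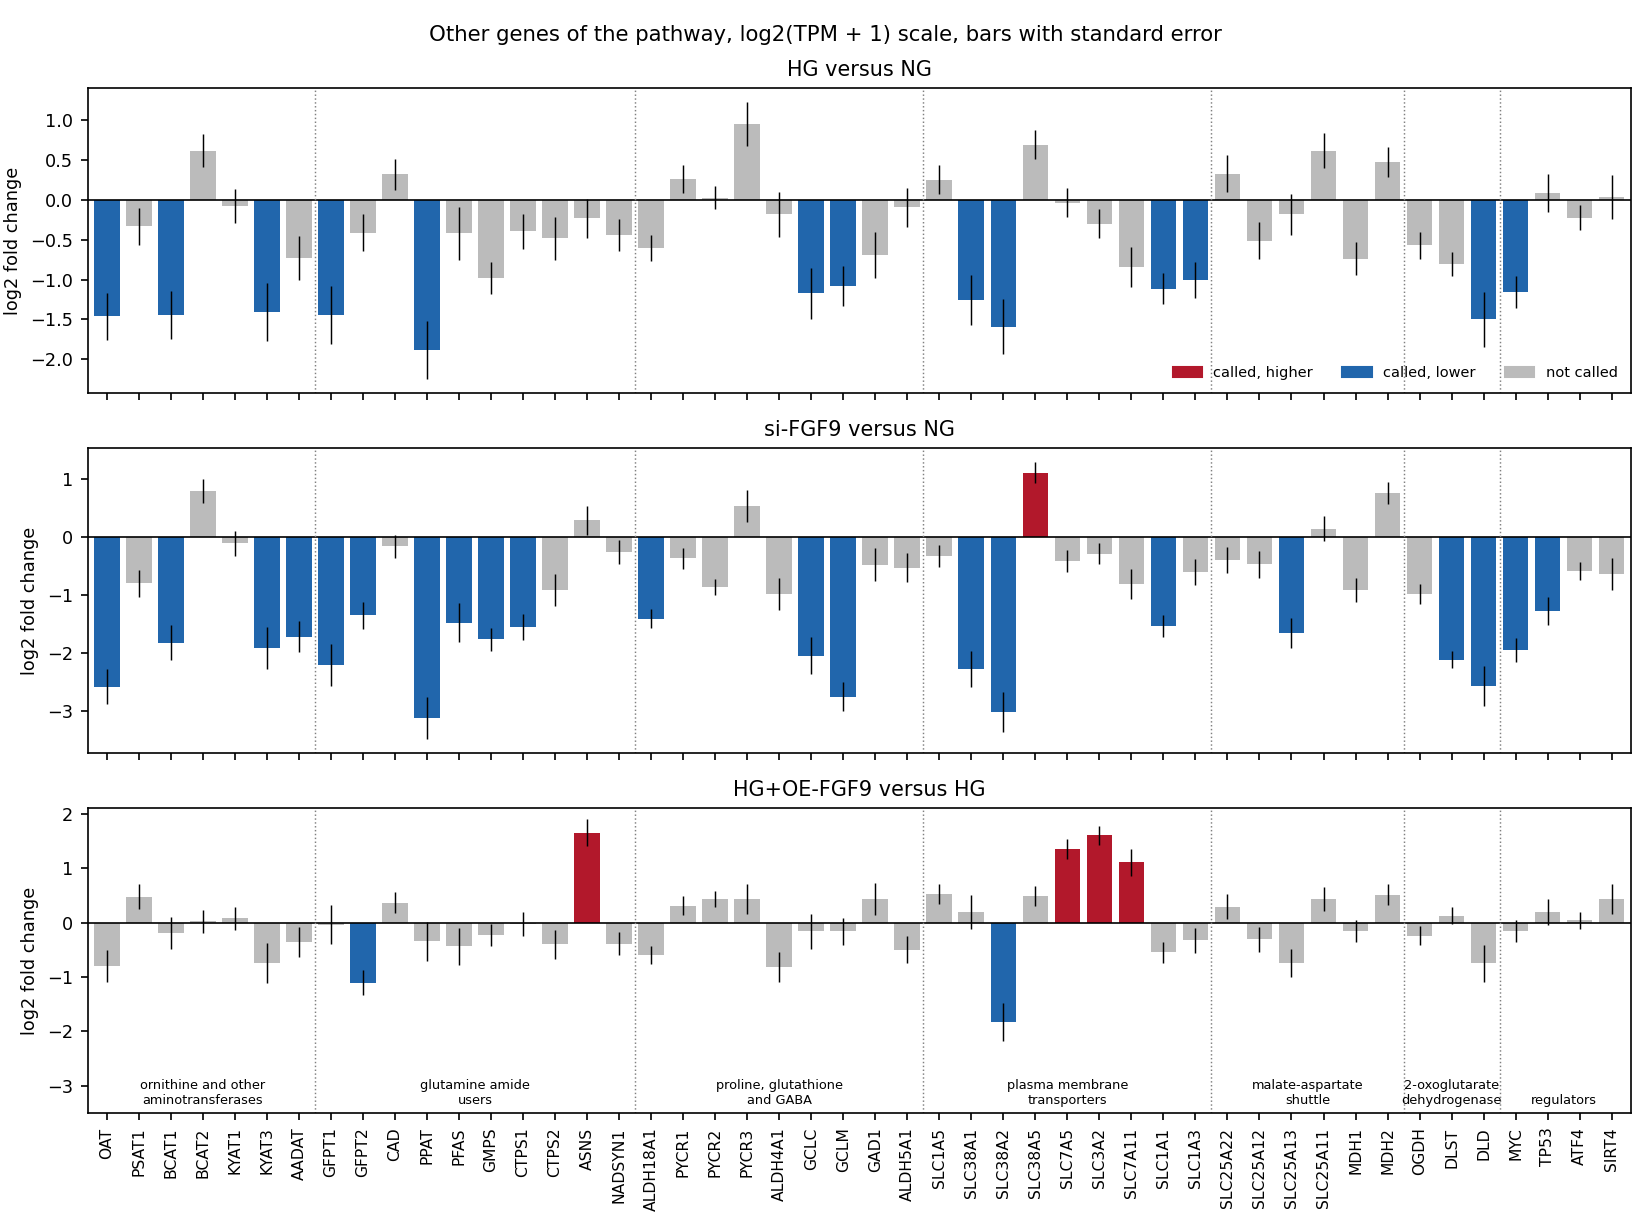
Log2 fold changes (log2(TPM + 1) scale, bars with standard error) of the 48 tested pathway genes other than the members, grouped by role, in 3 comparisons; blue marks genes called lower, red genes called higher and grey genes not called. Nearly all called genes are lower in the upper panels (13 of 13 and 21 of 22), and in the lowest panel ASNS, SLC7A5, SLC3A2 and SLC7A11 are higher and GFPT2 and SLC38A2 lower.

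The genes called lower against NG, in shares near those of all genes, lay at several steps of the pathway. Ornithine aminotransferase OAT had log2 fold changes against NG of -1.46 in HG and -2.58 in si-FGF9 (limma adjusted p = 0.00267 and 2.02e-05). MYC, a transcription factor known to promote glutamine use in proliferating cells, had -1.15 and -1.94 (adjusted p = 0.00147 and 1.25e-05). MYC was the 1 listed gene still called in HG versus NG after GC correction, at -1.02, whereas OAT, at -0.50, was not. With HG replicate 3 left out as well, none was called, by limma. After median of ratios MYC had -0.64 in HG and -0.91 in si-FGF9, neither called. PPAT, the first enzyme of purine synthesis and a user of glutamine amide, had -1.88 and -3.11, and the glutathione synthesis subunit GCLM had -1.08 and -2.75. After GC correction both passed in si-FGF9 versus NG, at -1.56 and -1.10, but not in HG versus NG, at -0.80 and 0.04. DLST, a subunit of 2-oxoglutarate dehydrogenase, had -2.11 in si-FGF9 versus NG (-1.56 after GC correction). The glutamine transporter SLC38A2 had -1.59 in HG and -3.01 in si-FGF9, and SLC38A1 had -1.26 and -2.27. After GC correction SLC38A2 had -0.49 and -1.37, the latter still called, and SLC38A1 had -0.31 and -0.80, neither called. After median of ratios 6 listed genes were still called in HG versus NG, among them PPAT (-1.40) and SLC38A2 (-1.08). SLC38A5, also a glutamine transporter, was the 1 gene called higher in si-FGF9 versus NG, by 1.12 (adjusted p = 0.000154), at 21.0 to 23.1 TPM against 7.92 to 10.7 TPM.

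In HG+OE-FGF9 versus HG the genes called higher were ASNS, which uses glutamine to make asparagine, and 3 plasma membrane transporter genes. ASNS stood at 132, 135 and 129 TPM in HG+OE-FGF9 and at 36.1, 29.3 and 65.9 TPM in HG (log2 fold change 1.65, SE 0.246, limma adjusted p = 0.00246). SLC3A2, the heavy chain shared by several amino acid exchangers, stood at 242, 236 and 195 TPM against 65.1, 59.5 and 99.7 TPM (1.60, adjusted p = 0.000467). SLC7A5, its partner in leucine and glutamine exchange, stood at 31.7, 32.0 and 31.2 TPM against 10.3, 10.6 and 14.6 TPM (1.36, adjusted p = 0.00132). For all 3 genes every HG+OE-FGF9 library was above every library of the other groups, as it was for GOT1. How many of all genes share that pattern was not counted. Between HG+OE-FGF9 and HG alone, 22.1% of all tested genes did not overlap.

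SLC7A11, the cystine and glutamate exchanger, was near the filter at 3.35, 3.39 and 1.56 TPM against 0.59, 0.28 and 1.40 TPM (1.11, adjusted p = 0.0194). Lower in the same comparison were the glutamine transporter SLC38A2 (8.03, 8.02 and 20.0 TPM against 45.5, 25.4 and 61.8 TPM, -1.83, limma adjusted p = 0.0077) and GFPT2 of the hexosamine pathway (3.26, 2.70 and 6.43 TPM against 10.1, 9.57 and 8.90 TPM, -1.10, adjusted p = 0.013). The 6 tested genes of the malate-aspartate shuttle and the mitochondrial glutamate carriers, the 9 of the proline, glutathione and GABA branches, the 3 of 2-oxoglutarate dehydrogenase, the 4 regulators and the 7 other aminotransferases gave no call in this comparison. The 6 calls became 4 when HG+OE-FGF9 replicates 1 and 2 were averaged or replicate 2 was left out, and 10 without replicate 3.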

How the data were processed

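RNA-seq of 12 HK2 libraries was deposited by the authors as 1 table of TPM per library, each summing to about 1000000; total RNA was extracted with TRIzol and sequenced on an Illumina instrument. The submitters' notes name Bowtie 0.12.2 and the mouse build mm8, while the identifiers are human Ensembl genes, so the quantifier and human build behind the TPM are not given in the sources used here. A table of the whole series held the same 12 columns and was not used. TPM hold no counts, so depth is unknown, no count test was run, and the count tests planned in case of counts were replaced by limma.

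Groups followed the labels. Of 62703 identifiers 62625 matched a gene name. log2(TPM + 1) of the 14639 genes with TPM of at least 1 in at least 3 libraries was fitted with limma 3.58.1 (R 4.3.3) on all 12 libraries, group only, with a variance trend; fold changes on this scale understate those of low genes. Genes were called at a log2 fold change of at least 1 and p under 0.01, and adjusted p are Benjamini-Hochberg over all 14639 genes. The GC correction took a natural spline (df 5) of GC content out of each library, with a value for 96.9% of tested genes. The fit was tested on simulated data. The members and lists were chosen with earlier results of these data known. Of the pathway list, 1 gene is not reported here. Named were all members, of the pathway list up to 3 called genes per direction and role, and the 3 genes with a symbol correlating best with each member. Alternatives covered the filter, samples in the fit, block, thresholds, pseudocount, scaling, GC content, variance trend and each library left out.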

Additional observations from a re-analysis of the deposited data

How the results depend on the processing

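The thresholds and scalings decided most counts of called members and pathway genes. With adjusted p under 0.05 and no fold limit the members called became 2 in HG versus NG, 3 for the siRNA against NG and 1 for overexpression against HG, the pathway genes in the first of these 24, and the contrasts over all pairs of groups 9 instead of 4. Median of ratios gave 0 members in the first and 0 in the second comparison and 6 pathway genes in the first. It also gave 1 contrast, which was not among those 4: GOT1 in HG+OE-FGF9 versus NG, at 1.47 against 0.83 as deposited. Quantile normalization gave 0 members in the first comparison. The GC correction gave 0 and 0 members, 1 and 10 pathway genes and 0 contrasts. The same correction without HG replicate 3, added after seeing the data, gave 0 and 0 members, 0 and 10 pathway genes and 0 contrasts. Averaging HG+OE-FGF9 replicates 1 and 2, also added later, gave 4 instead of 6 pathway genes in HG+OE-FGF9 versus HG. Among all tested genes the split of higher to lower calls went from 242 to 3328 (HG versus NG) and 785 to 6181 (si-FGF9 versus NG) to 1063 to 1240 and 2774 to 2613 under median of ratios, 1016 to 1220 and 2373 to 2500 under quantile normalization, and 536 to 434 and 1751 to 1701 under GC correction. In HG+OE-FGF9 versus HG it went from 430 to 391 to 505 to 281, 487 to 318 and 430 to 309 under the same 3, and to 479 to 694 with a pseudocount of 0.1. The cause was not tested.

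Directions reversed under median of ratios for GOT2 (0.44) in HG versus NG, for GLUL (0.18), GOT1 (0.79), GOT2 (0.56) and GPT2 (0.93) in si-FGF9 versus NG and for GOT2 (0.026) in HG+OE-FGF9 versus HG; under quantile normalization for GOT2 (0.22) in HG versus NG and GOT1 (0.45), GOT2 (0.041) and GPT2 (0.74) in si-FGF9 versus NG; and under GC correction for GOT2 (0.23, and 0.33 also without HG replicate 3) in HG versus NG and GLUL (0.30), GOT1 (0.27), GOT2 (0.17) and GPT2 (0.28) in si-FGF9 versus NG. GLUD1 in the 3 comparisons, GLUL and GPT2 in HG versus NG, and GLUL, GOT1 and GPT2 in HG+OE-FGF9 versus HG kept their sign under every alternative run.

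With a library left out, members called in HG versus NG ran from 0 to 2 (0 without NG replicate 2 or 3 or HG replicate 1 or 2, and 2 without HG replicate 3), and pathway genes from 7 (without HG replicate 2) to 16 (without HG replicate 3). In si-FGF9 versus NG these ran from 1 to 1 and from 22 to 24, and in HG+OE-FGF9 versus HG from 0 to 0 and from 4 (without HG+OE-FGF9 replicate 2) to 10 (without HG+OE-FGF9 replicate 3). The contrasts ran from 3 to 5. The log2 difference of GOT1 in HG versus NG ran from -0.13 to 0.14, of GOT2 from -0.13 to 0.023 and of GPT2 in si-FGF9 versus NG from -0.11 to 0.0017, and the GOT2 to GOT1 ratio in HG versus NG from -0.24 to 0.16, positive without HG replicate 3.

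Replicate numbers did not pair the libraries (correlation of same-numbered deviations -0.439 to 0.248). A replicate block left the members called at 1, 1 and 0; with the block and the GC correction together they were 0, 0 and 0, the pathway genes 1 and 10 in the first pair of comparisons, the contrasts 0, and the reversed values GOT2 (0.23) in HG versus NG and GLUL (0.30), GOT1 (0.27), GOT2 (0.17) and GPT2 (0.28) in si-FGF9 versus NG. The count tools listed as alternatives were not run: TPM files have no counts.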
